A study of Mus musculus with 10 samples.

Results

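*Retnla*, *Chil3*, *Arg1*, *Mrc1*, *Cd163*, *Mgl2*, *Clec10a*, *Folr2*, *Lyz1* and *Lyz2* are genes of alternatively activated macrophages together with the mouse lysozymes. They are 10 of the 21792 genes with values in every mouse, given as FPKM, the fragments of a gene scaled to its length and to the size of the library. *Retnla* and *Lyz1* were chosen for their large rise in the injured kidney, so their difference between the groups is given as a description without a test. The other 8 were chosen by name, as known genes of this macrophage state and as the neighbour of *Lyz1*, but with earlier results of these data at hand. The study compared 4 sham mice with 6 mice with aristolochic acid nephropathy (AAN). All 10 were male wild-type C57BL/6 mice of 8 weeks. The sham mice received PBS, and the AAN mice received aristolochic acid, a plant toxin taken up by the proximal tubule, in a single intraperitoneal injection of 5 mg/kg. The kidney cortex was taken at day 28, each mouse on its own, and RNA of the whole tissue was sequenced. No cells were sorted, so more cells of a type and more RNA per cell cannot be told apart in any value below.

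Macrophages that meet the cytokines IL-4 and IL-13 switch on a set of genes through the receptor chain *Il4ra* and the transcription factor *Stat6*, a state called alternative activation and linked to tissue repair and scarring. The set includes secreted proteins (*Retnla* and *Chil3*), the arginine-splitting enzyme *Arg1* and endocytic receptors for sugars and other ligands (*Mrc1*, *Mgl2* and *Clec10a*). *Cd163* and *Folr2* are receptors that mark many macrophages resident in tissues. Lysozyme cuts bacterial cell walls. *Lyz2* is the lysozyme of mouse macrophages and other myeloid cells, and *Lyz1* is known from Paneth cells of the gut.

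The libraries held 15.8 to 17.5 M fragments in sham mice and 13.4 to 16.5 M in AAN mice, as recovered from the FPKM steps of genes with 1 transcript. The median log2 fold change of all 17129 genes tested was 0.75, with 82.3% of them above 0, and it was 0.05 after scaling by the median of ratios. All 10 genes were above 0 in fold change under every scaling, pseudocount and left-out mouse that gave a value. The AAN mouse B614 stood apart from the other AAN mice. It had the lowest summed FPKM of the macrophage core list (619.7 against 1277 or more) and the highest of the proximal tubule list (1856 against 473 to 835). Not all core genes were low in it: its *Adgre1* was the highest of the AAN mice (22.3 FPKM). Some of the levels, spreads and differences that this mouse moves are also given without it, and the others include it.

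*Retnla* encodes a small secreted protein of alternatively activated macrophages. The gene lies on chromosome 16 at 48842551 to 48844461 (GRCm38, plus strand). In sham mice its FPKM was 0 in B607, 0 in B634, 0.102 in B636 and 0.203 in H249, which correspond to 0, 0, 1 and 2 fragments. In AAN mice the lowest value was 48.1 (B614), the median 248.7 and the highest 622 (A483). Every AAN mouse was far above every sham mouse, and the gene moved from rank 15642 to rank 109 of all genes by mean FPKM. Pooled over mice there were 3 fragments in sham and 17263 in AAN, which gives a depth-corrected ratio of 4095 with a 95% exact interval of 1401 to 19859 that covers counting error only. Without B614 the lowest AAN value was 101 (B642). The AAN mean was 305 ± 239 FPKM (SD, n = 6).

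RefSeq holds a transcript start for 8 of the 10 genes, *Arg1* and *Clec10a* not being matched. The 250 bases upstream of each RefSeq start were searched for motifs. The *Retnla* window is shown because this gene was chosen for its rise and its window holds a site of each of the motifs searched. The RefSeq start lies 58 bases inside the gene as placed above, so only the 192 bases outside that gene are printed, at chr16:48842359-48842550 (GRCm38.p6, plus strand), and the capitals mark, in order, the PU.1 letters ACTTCCT, the STAT letters TTCACAAGAA and the C/EBP letters TTGCTAAA.
Retnla: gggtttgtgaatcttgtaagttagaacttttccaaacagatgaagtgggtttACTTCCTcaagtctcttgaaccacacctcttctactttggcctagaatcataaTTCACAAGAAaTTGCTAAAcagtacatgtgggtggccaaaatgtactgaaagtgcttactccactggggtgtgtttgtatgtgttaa
The STAT motif was searched as TTCNNNNGAA, the C/EBP motif as TTGCNNAA and the PU.1 motif as AGGAAGT, each on both strands. They occurred in 5.85%, 9.56% and 7.69% of all 32851 upstream windows of this length. In *Retnla* the STAT letters span 145 to 136 bases and the C/EBP letters 134 to 127 bases before the RefSeq start, so 1 base separates them, and the motifs do not overlap. Of the 8 genes with a window, *Retnla* was the only one with the STAT letters. A match of letters is a description of the window and says nothing of binding, and the window of a gene without a match says nothing of the factor.

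*Chil3* encodes a chitinase-like secreted protein, also called Ym1. Its FPKM was 0 in 3 sham mice and 0.058 in H249. In AAN mice the lowest value was 0.031 (B614), the median 0.60 and the highest 1.01 (B642). The groups overlapped in 1 mouse, since B614 was below H249, and the other 5 AAN mice were above all sham mice. The lowest AAN value without B614 was 0.155 FPKM (B630). Its sham mean was under the filter of 0.1 FPKM, which it passed through the AAN mice, so its fitted log2 difference of 2.16 is a description. That value was 0.55 with a pseudocount of 1 and 4.45 with 0.01. The highest AAN value corresponds to at most 26.0 fragments. *Chil4*, the nearest relative, had 0.0908 FPKM in sham and 0.111 in AAN (adjusted p = 0.784, limma), and its longest transcript is 94.2% identical to that of *Chil3*, so reads in shared stretches of up to 136 bases cannot be assigned with certainty.

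*Arg1* encodes arginase 1, which splits arginine into ornithine and urea. It was listed at 0 in all 4 sham mice, so no fold against sham is given. In AAN mice the lowest value was 0.259 FPKM (B614), the median 4.92 and the highest 13.7 (B666). Every AAN mouse was above 0. *Arg1* passed the filter on low values through the AAN mice, so no test is given for it. Without B614 its AAN values ran from 3.39 to 13.7 FPKM. The highest value of *Arg1* was 52.8 times the lowest over the 6 AAN mice and 4.03 times without B614. Its spread (SD of log2) over all 6, B614 included, lay at the 99.2 percentile of the 12845 genes whose AAN mean reached 1 FPKM. That percentile was not computed without B614.

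*Mrc1* is the mannose receptor (CD206). Its sham values were 0.583 (B607), 0.398 (B634), 0.269 (B636) and 0.473 FPKM (H249). The AAN values had a lowest of 8.75 (B614), a median of 19.9 and a highest of 30.5 FPKM (B666). No AAN mouse came near the sham range. The lowest AAN value without B614 was 18.4 FPKM (B630). *Mrc1* rose by 5.26 ± 0.32 on the log2 scale (limma, adjusted p = 2.14e-07), from a mean of 0.431 ± 0.132 FPKM (SD, n = 4) to 21.3 ± 8.22 FPKM (SD, n = 6).

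*Mgl2* and *Clec10a* are neighbouring C-type lectins of chromosome 11 that bind galactose and N-acetylgalactosamine, known as CD301b and CD301a. *Mgl2* was at 0.924, 0.558, 0.737 and 0.920 FPKM in the sham mice B607, B634, B636 and H249. In AAN it ran from 17.2 (B614) over a median of 39.1 to 59.8 FPKM (A483). *Clec10a* was at 0.137, 0.0651, 0.198 and 0.136 FPKM in the same sham mice, and in AAN it ran from 1.51 (B614) over a median of 3.70 to 4.45 FPKM (A483). Neither gene overlapped between the groups. *Mgl2* rose by 5.35 ± 0.31 and *Clec10a* by 3.88 ± 0.30 (log2, SE; limma, adjusted p = 1.71e-07 and 7.88e-07). The ratio of *Mgl2* to *Clec10a* FPKM was 3.71 to 8.58 in sham and 8.98 to 13.4 in AAN. The rise of *Mgl2* exceeded that of *Clec10a* by 1.47 ± 0.18 (log2, SE; exact permutation test, adjusted p = 0.00688), and all 6 AAN mice exceeded all sham mice in this difference. The excess was 2.43 with a pseudocount of 1 and 0.91 with 0.01, since *Clec10a* was low in sham. Their longest transcripts share stretches of up to 183 identical bases, so the split of reads between them is uncertain.

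*Cd163* is the scavenger receptor for haemoglobin bound to haptoglobin. It was at 0 in B607 and H249, 0.009 FPKM in B634 and 0.026 FPKM in B636. In AAN it was lowest in B639 (0.011), with a median of 0.161 and a highest value of 0.393 FPKM (A483). The values were low throughout and overlapped in 1 mouse, and B639 corresponds to less than 1 fragment. As for *Chil3* and *Arg1*, its fitted log2 difference of 1.15 is a description, since *Cd163* passed the filter through the AAN mice. It was 0.21 with a pseudocount of 1 and 2.93 with 0.01. Under scaling by the median of ratios or by quantiles, *Cd163* did not pass the filter.

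*Folr2* is the folate receptor beta of macrophages. It was already present in sham kidney, at 1.80, 2.05, 4.56 and 2.53 FPKM in B607, B634, B636 and H249. In AAN it had a lowest value of 2.13 (B614), a median of 5.33 and a highest of 10.5 FPKM (B666). B614 lay inside the sham range, and the other 5 AAN mice, at 5.12 to 10.5 FPKM, were above the highest sham mouse. *Folr2* was called higher by 1.04 ± 0.39 (log2, SE; limma, adjusted p = 0.0338), close to the limit of 2-fold and to the median of all genes. The call was lost after scaling by the median of ratios (0.30, adjusted p = 0.56, limma) or by quantiles (0.18, adjusted p = 0.74, limma), with a pseudocount of 1 (0.85), in B tags alone (1.04, adjusted p = 0.0973, limma), and without each of sham B607, B634 or H249 and AAN A483, B642 or B666 (0.85 to 1.05). The annotation has 2 other genes over *Folr2*, *Gm10602* and *Gm45319*, both on the other strand and without a value in the files used, and strand use in the counting is not given in the sources used here.

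*Lyz1* and *Lyz2* lie beside each other on the minus strand of chromosome 10, at 117287797 to 117292868 and 117277331 to 117282321 (GRCm38). *Lyz2* was at 18.1, 8.42, 32.8 and 18.7 FPKM in B607, B634, B636 and H249. In AAN it ran from 1154 (B614) over a median of 2174 to 3525 FPKM (B642), and its rank by mean FPKM among all genes went from 1671 to 25. *Lyz2* rose by 6.83 ± 0.39 (log2, SE; limma, adjusted p = 1.74e-07), with no overlap between the groups. *Lyz1* was at 0 in B607, B634 and B636 and at 0.048 FPKM, which is 1 fragment, in H249. In AAN it ran from 65.0 (B630) over a median of 109 to 224 FPKM (B642). All 6 AAN mice were above all 4 sham mice, and the gene took rank 304 by mean AAN FPKM. The 1 sham fragment against 14156 AAN fragments gives a depth-corrected ratio of 10074, with a 95% exact interval of 1808 to 397922 for counting error only.

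The upstream windows of the lysozyme pair are shown because the genes are duplicates with unlike levels in sham kidney. The *Lyz1* window lies at chr10:117292869-117293118 and the part of the *Lyz2* window printed at chr10:117282322-117282522 (both GRCm38.p6, minus strand, from RefSeq). The RefSeq start of *Lyz2* lies 49 bases inside the gene as placed above, and those bases are not printed. Capitals mark bases that differ, or face a gap, in a global alignment of both windows of 250 bases.
Lyz1: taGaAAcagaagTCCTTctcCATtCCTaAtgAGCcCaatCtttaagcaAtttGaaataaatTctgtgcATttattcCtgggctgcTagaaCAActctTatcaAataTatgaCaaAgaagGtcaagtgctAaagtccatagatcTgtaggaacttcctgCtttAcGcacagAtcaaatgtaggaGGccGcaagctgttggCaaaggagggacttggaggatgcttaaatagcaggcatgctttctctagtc
Lyz2: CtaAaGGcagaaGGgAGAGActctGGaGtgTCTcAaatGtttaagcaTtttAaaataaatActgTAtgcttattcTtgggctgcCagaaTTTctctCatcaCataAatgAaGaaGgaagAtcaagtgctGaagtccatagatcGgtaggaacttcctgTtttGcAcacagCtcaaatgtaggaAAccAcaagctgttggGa
The windows were identical at 204 of 256 aligned positions (79.7%), with 40 mismatches and 12 gap positions. Both hold the PU.1 letters ACTTCCT at 100 to 94 bases before the RefSeq start, and of the pair only the *Lyz1* window holds the C/EBP letters, as TTAAGCAA at 209 to 202 bases.

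The transcripts of *Lyz1* and *Lyz2* are 92.0% identical, with the longest identical stretch 118 bases, so some fragments could be assigned to the wrong gene. Over the 4 sham mice 1 of 1710 fragments of the pair was assigned to *Lyz1*, in H249, where it was 0.246% of the pair (95% exact interval 0.00622 to 1.36). As a description, in AAN the share of *Lyz1* was 3.18% in A483 (3.04 to 3.32), 7.80% in B614 (7.48 to 8.14), 4.73% in B630 (4.48 to 4.99), 5.90% in B639 (5.66 to 6.15), 5.74% in B642 (5.58 to 5.91) and 4.34% in B666 (4.18 to 4.52). In B607, B634 and B636 there were 0 *Lyz1* fragments of 417, 176 and 710, which with a limit of 3 fragments allows a share of up to 0.719%, 1.70% and 0.423%, and their 95% exact upper bounds were 0.881%, 2.07% and 0.518%. The highest share was in B614, the AAN mouse with the lowest *Lyz2*. Of 8 Paneth cell markers sought, including alpha-defensins, none has a value in the files used here.

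**Figure D1:**
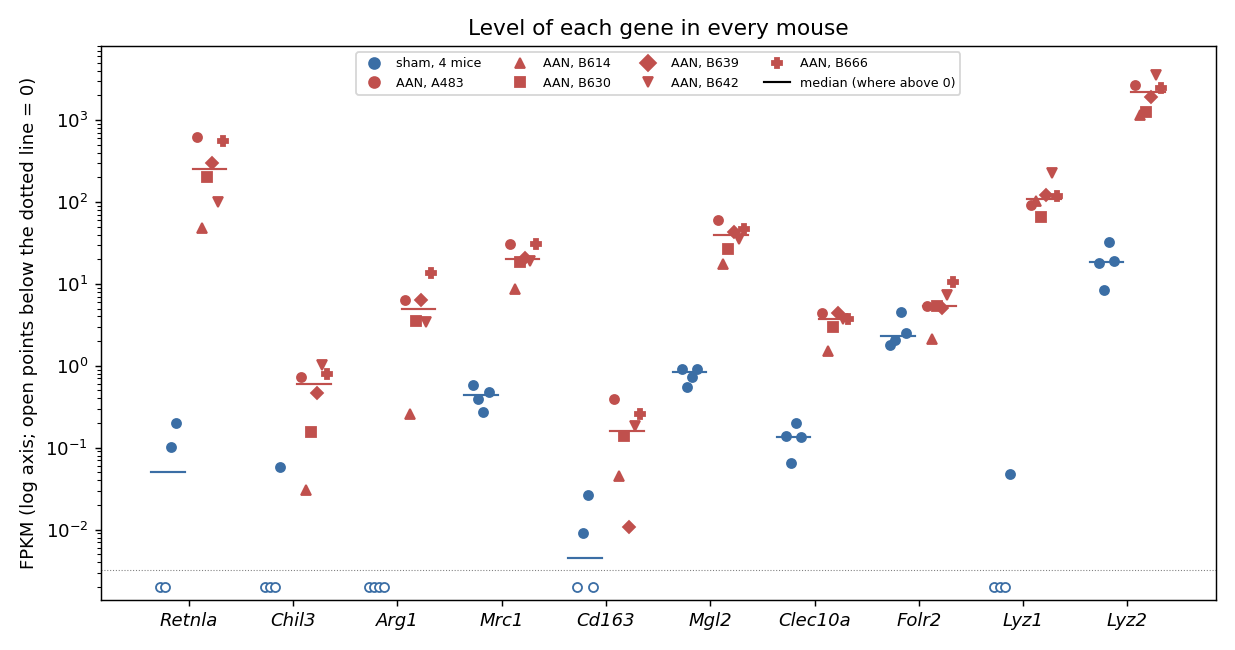
FPKM on a log axis of the 10 genes in each of 4 sham (blue) and 6 AAN (red, 1 symbol per mouse) mice, with a line at the group median where it is above 0 and open points for a value of 0. The groups were separate for 7 of the 10 genes, and *Chil3*, *Cd163* and *Folr2* overlapped in 1 AAN mouse each.

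All 10 genes passed the filter of a mean of 0.1 FPKM over the 10 mice, but *Retnla*, *Chil3*, *Arg1*, *Cd163* and *Lyz1* had a sham mean under it and passed through the AAN mice, so their difference is a description. Of the other 5 (*Mrc1*, *Mgl2*, *Clec10a*, *Folr2* and *Lyz2*), 5 were called higher in AAN and 0 lower (limma, adjusted p of at most 0.05 and at least 2-fold), the call of *Folr2* being lost under the settings given above. Over all 17129 genes tested, 35.8% were called higher and 3.43% lower. Of the 5, 4 did not overlap between the groups, against 40.3% of all genes in which every AAN mouse was above every sham mouse. Without B614, 5 did not overlap, against 46.7% of all genes.

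The next question was whether each gene changed by more or less than macrophage genes in general. The macrophage core list of 10 genes holds, among others, *Adgre1*, *Cd68*, *Fcgr1*, *Mertk*, *Aif1* and the C1q genes. Of the 10 genes, 9 were called higher and 0 lower, beside 35.8% and 3.43% of all genes, *Mertk* not being called. The median log2 fold change of the list was 4.37. Its summed FPKM was 41.3 to 65.1 in sham and 620 to 2154 in AAN, and no marker was at 0 in sham. *C1qa* rose to a mean of 671 FPKM, *C1qb* to 502, *C1qc* to 212 and *Cd68* to 54.3 FPKM. For each mouse the mean log2 level of this list was subtracted from the log2 level of each gene.

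Relative to the core, *Mrc1* rose by 1.28 ± 0.20, *Mgl2* by 1.37 ± 0.13 and *Lyz2* by 2.85 ± 0.38 (log2, SE; exact permutation test, adjusted p = 0.00688 for each). In these 3 genes every AAN mouse was above every sham mouse. *Folr2* rose less than the core, by -2.93 ± 0.41 (same test, adjusted p = 0.00688), with every AAN mouse below every sham mouse. The unadjusted p of 0.00476 is the smallest that the 210 assignments of the mice can give. With a pseudocount of 1 the value of *Mrc1* was 0.40 and did not pass, and that of *Mgl2* was 0.89. For *Chil3* and *Cd163* the sham levels lie under the pseudocount, which sets the difference, so the values are a description: *Chil3* minus the core differed by -1.82, and by 0.39 with a pseudocount of 0.01, and *Cd163* minus the core by -2.83, and by -1.13 with 0.01.

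*Clec10a* minus the core differed between the groups by -0.10 ± 0.19, which did not pass (log2, SE; exact permutation test, adjusted p = 0.633), and its AAN values, -4.01 to -3.46, overlapped the sham values, -3.90 to -3.13. Its sign changed with the pseudocount (-1.54 with 1 and 0.53 with 0.01), after the median of ratios (0.07), with a core without C1q genes (0.33) and without the sham mouse B636 (0.07). *Arg1*, at 0 in sham, differed from the core by 1.23 as a description, by 1.74 without B614, by -1.09 with a pseudocount of 1 and by 4.38 with 0.01. As a description, *Retnla* exceeded the core by 6.44 and *Lyz1* by 6.01, and the rise of *Lyz1* exceeded that of *Lyz2* by 3.16, all on the log2(FPKM + 0.1) scale, on which their sham values lie at or near the pseudocount. With a pseudocount of 1 these values were 4.19, 3.33 and 0.05, and with 0.01 they were 8.36, 8.75 and 5.98.

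Among the receptors, *Folr2* changed less than *Mrc1*, by -4.22 ± 0.49 (log2, SE; exact permutation test, adjusted p = 0.00688). As a description, *Cd163* minus *Mrc1* differed by -4.11, and by -2.61 with a pseudocount of 0.01. The log2 level of *Folr2* minus that of *Mrc1* was 2.36 in the mean of the sham mice (1.48 to 3.66) and -1.86 in AAN (-2.49 to -1.35). *Folr2* was thus above *Mrc1* in all 4 sham mice and below it in all 6 AAN mice.

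**Figure D2:**
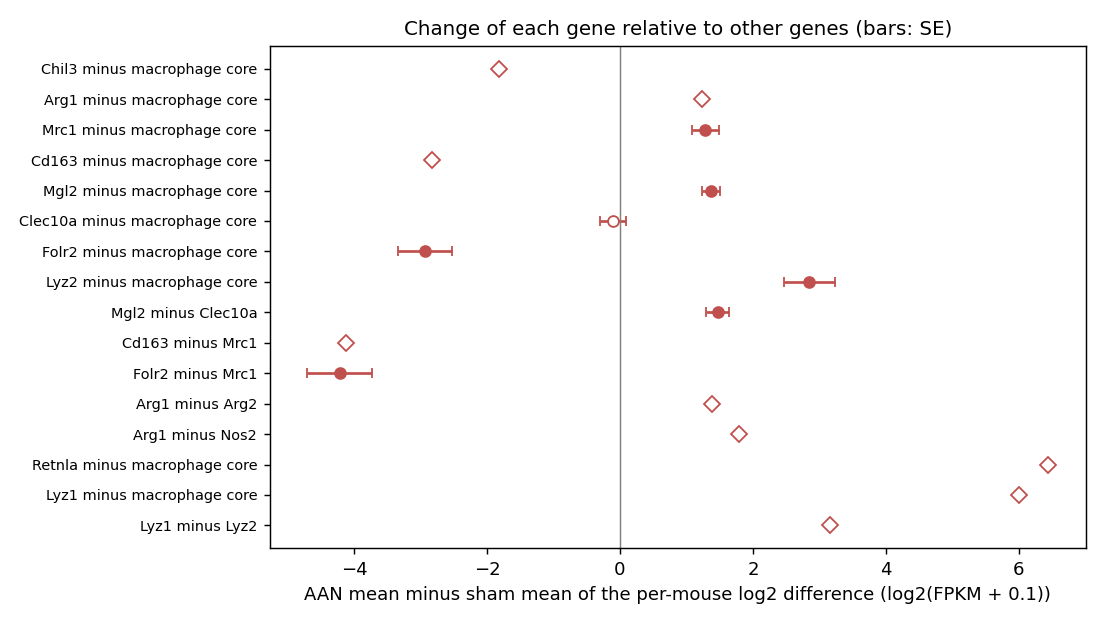
Difference between AAN and sham in the per-mouse log2 level of 1 gene minus another or minus the macrophage core list, with SE bars; filled points passed the exact permutation test after adjustment, open circles did not, and diamonds are descriptions without a test or bar. Among the tested genes, *Mrc1*, *Mgl2* and *Lyz2* lie above the core and *Folr2* below it.

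*Arg1* was compared with the genes that share its substrate. *Arg2*, the mitochondrial arginase, rose from 0.908 to 13.1 FPKM (3.83 ± 0.42 on the log2 scale; limma, adjusted p = 1.29e-05), and its mean was above that of *Arg1*. *Arg1* was under *Arg2* in every AAN mouse, with ratios of 0.0472 (B614) to 0.737 (B666). *Nos2*, the inducible nitric oxide synthase of classically activated macrophages, rose from 0.107 to 2.33 FPKM (3.42 ± 0.34; limma, adjusted p = 4.81e-06). The ratio of *Arg1* to *Nos2* was 5.24 in A483, 0.0906 in B614, 2.47 in B630, 2.84 in B639, 0.740 in B642 and 8.27 in B666. It was above 1 in 4 mice and below 1 in B614 and B642. On the log2(FPKM + 0.1) scale *Arg1* minus *Arg2* differed between the groups by 1.39 and *Arg1* minus *Nos2* by 1.79, which depend on the pseudocount because *Arg1* was at 0 in sham, and without B614 by 1.83 and 2.55. Of 11 tested genes of arginine use, 5 were called higher and 2 lower, beside 35.8% and 3.43% of all genes. Their sum was 766 to 1668 FPKM in sham and 328 to 1074 in AAN, and at most 539 without B614. *Ass1*, which makes the precursor of arginine, fell from 488 to 131 FPKM (-2.13, adjusted p = 0.000586), and *Odc1*, which starts polyamine synthesis, fell from 322 to 115 FPKM (-1.48, adjusted p = 0.0162, both limma). *Oat* had 97.0 and 127 FPKM and *Gatm* 192 and 118 FPKM, neither being called. Of 6 proximal tubule markers, 5 were called lower and 0 higher: the mean of *Slc34a1* went from 2008 to 674 FPKM, that of *Lrp2* from 101 to 28.3, that of *Slc22a6* from 287 to 27.6, that of *Slc13a3* from 101 to 19.9 and that of *Cubn* from 23.7 to 10.9, with *Slc5a2* at 91.4 and 61.0 FPKM and not called. Their sum was 1676 to 3618 FPKM in sham. These AAN means include B614, which had the highest AAN values of *Slc22a6* (117 FPKM) and *Slc13a3* (68.5 FPKM). The part of the tubule in these values was not tested.

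The genes varied widely between the 6 AAN mice. B614 was the lowest of them for 8 of the 10 genes, the exceptions being *Cd163* (lowest in B639) and *Lyz1* (lowest in B630). A483 was highest for *Retnla*, *Cd163*, *Mgl2* and *Clec10a*, B666 for *Arg1*, *Mrc1* and *Folr2*, and B642 for *Chil3*, *Lyz1* and *Lyz2*. The highest *Retnla* value was 12.9 times the lowest, and 6.18 times without B614. The same ratio was 3.48 for *Mrc1*, 3.47 for *Mgl2*, 2.94 for *Clec10a*, 3.44 for *Lyz1* and 3.06 for *Lyz2*, and without B614 it was 1.66, 2.22, 1.48, 3.44 and 2.80.

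**Figure D3:**
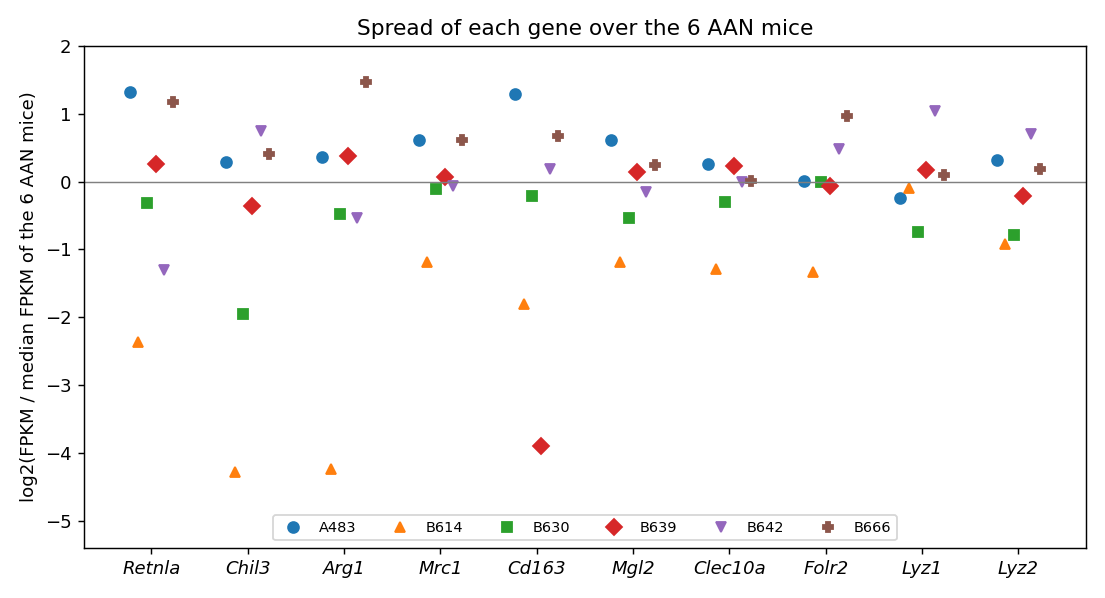
Level of each gene in each of the 6 AAN mice as log2 of the ratio to the median of these mice. B614 lies lowest for 8 genes, B639 lies lowest for *Cd163*, and B642 lies below the median for *Retnla* and *Arg1* and highest for *Chil3*, *Lyz1* and *Lyz2*.

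B642 had the highest macrophage core level (geometric mean 60.7 FPKM), *Lyz2* and *Lyz1*, yet its *Retnla* was 101 FPKM, below all other AAN mice but B614. *Retnla* divided by *Mrc1*, both in FPKM, was 20.5 in A483, 5.50 in B614, 10.9 in B630, 14.3 in B639, 5.29 in B642 and 18.4 in B666, and at most 0.429 in sham. Over the 6 AAN mice the Pearson r of *Retnla* with the core was 0.65 and Spearman's rho 0.43 (exact permutation p = 0.164 and 0.419, adjusted 0.258 and 0.549), and r was -0.48 without the 2 mice farthest from the median core. With *Lyz1* its r was -0.24 and rho -0.20 (exact permutation p = 0.676 and 0.714, adjusted 0.729 and 0.755), and r was -0.41 without the 2 farthest mice.

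**Figure D4:**
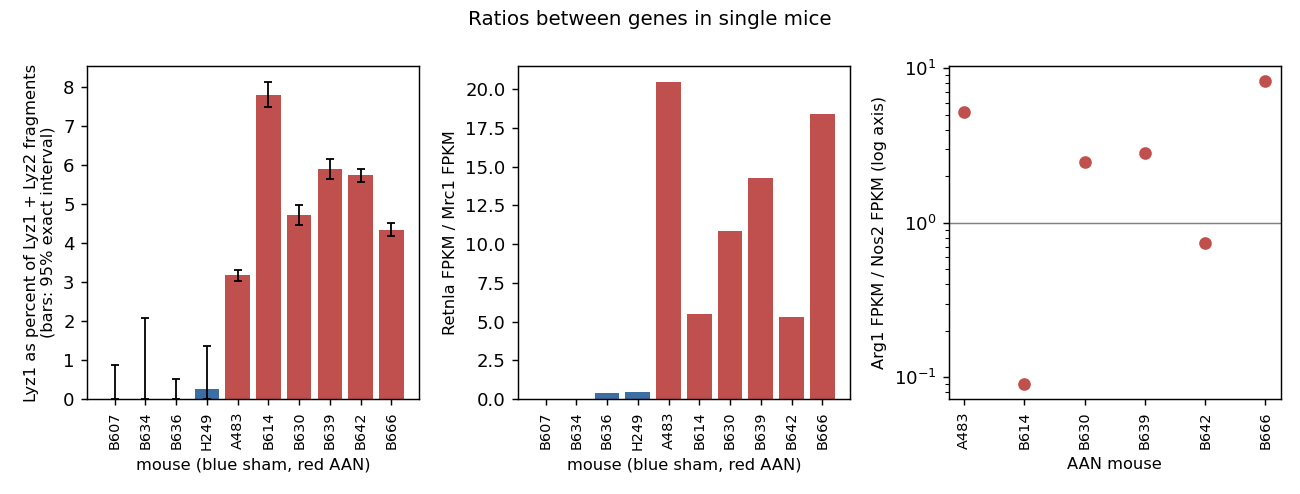
Left, *Lyz1* as a percent of *Lyz1* and *Lyz2* fragments in each mouse with 95% exact intervals; middle, *Retnla* FPKM divided by *Mrc1* FPKM in each mouse; right, *Arg1* FPKM divided by *Nos2* FPKM in the AAN mice on a log axis with a line at 1. The *Lyz1* share was highest in B614, *Retnla* relative to *Mrc1* was highest in A483 and B666, and *Arg1* was below *Nos2* in B614 and B642.

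Of the 55 relations computed between the 10 genes and with the core over the 6 AAN mice, 53 had a Pearson r above 0, and 4 passed adjustment by Pearson and 0 by Spearman, where the smallest adjusted p was 0.153 (exact permutation). The 4 were the core with *Lyz2* (r = 0.90, rho = 1, 0.91 without the 2 farthest mice), the core with *Chil3* (0.97, 0.94 and 0.76), *Chil3* with *Lyz2* (0.96, 0.94 and 0.95) and *Mrc1* with *Mgl2* (0.95, 0.94 and 0.92), each with an adjusted exact permutation p of 0.0382. With a pseudocount of 1, or after scaling by the median of ratios, 0 passed. The relations with *Chil3* rest on few fragments, from at most 0.787 in B614 to at most 26.0 in B642. In B614 its value of 0.0307 FPKM lies under the pseudocount. *Retnla* with *Arg1* (r = 0.89, rho = 0.83, 0.93 without the 2 farthest) and *Retnla* with *Mrc1* (0.94, 0.89 and 0.85) did not pass (both adjusted exact permutation p = 0.0573).

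The genes most like *Retnla* over the 6 AAN mice, among 6992 genes whose mean there reached 5 FPKM, were *Nol7*, *Snrnp70*, *Pnn*, *Zfp715* and *Golga7* (r = 0.967 to 0.983), and 76 genes had an r over 0.9. For *Arg1* they were *Dhrs3*, *Fam76b*, *Rsl1d1*, *Sema4b* and *Hnrnpd* (0.989 to 0.997), with 411 genes over 0.9. For *Lyz1* they were *Map2k2*, *Tgtp2*, *Gbp2*, *Frmd8* and *Cyba* (0.972 to 0.995), with 81 genes over 0.9. With 6 mice and this many genes such values describe the libraries only.

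The pathway around these genes was examined next. Of 12 tested genes of the IL-4 and IL-13 axis (of 15 listed), 10 were called higher and 0 lower, beside 35.8% and 3.43% of all genes. The median log2 fold change of the axis was 2.07, and that of all genes 0.75. The receptor chain *Il2rg* rose to 25.0 FPKM and *Stat6* from 11.5 to 24.8 FPKM (log2 1.13 ± 0.19, limma, adjusted p = 0.000306). *Jak1* rose to 20.6 FPKM (log2 1.04 ± 0.23, limma, adjusted p = 0.00236). The changes of *Stat6* and *Jak1* were close to the limit of 2-fold and to the median of all genes. Their calls under other scalings are not given. *Il13ra1* had 16.5 and 22.2 FPKM (adjusted p = 0.0951, limma). The cytokines themselves were scarce: *Il4* and *Il13* were at 0 in all sham mice and reached at most 0.128 and 0.158 FPKM in AAN, under the filter. Summed over the list, sham mice had 34.2 to 71.6 FPKM and AAN mice 116 to 168 FPKM.

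Of 18 other genes of alternative activation, 15 were called higher and 1 lower, beside 35.8% and 3.43% of all genes. The median log2 fold change of the list was 3.56. Most of those called higher, among them *Ccl17* and *Il10*, had a sham mean under the filter and passed it only through the AAN mice. The count is therefore a description. *Ccl8*, a monocyte-attracting chemokine, reached 357 FPKM from 0.176. *Ccl17* and *Ccl22*, both ligands of the receptor *Ccr4*, reached 42.4 FPKM from 0 in all sham mice and 15.0 FPKM from 0.15. *Tgm2*, a protein cross-linking enzyme, was at 58.8 and 93.0 FPKM (0.66, under the limit of 2-fold). *Cd36*, a fatty acid receptor also known from tubule and endothelium, was the gene called lower, from 19.4 to 4.09 FPKM (-2.14 ± 0.40; limma, adjusted p = 0.00074). The summed level was 49.6 to 115 FPKM in sham and 228 to 858 in AAN, and 492 or more without B614, and *Ccl17* and *Il10* were at 0 in sham.

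Of 13 genes of classical activation, 11 were tested and 11 were called higher, beside 35.8% of all genes. The median log2 fold change of the 11 was 3.42. Some of the 11 had a sham mean under the filter and passed it through the AAN mice, so the count is a description. *Cxcl9* and *Cxcl10*, chemokines induced by interferon, reached 31.3 and 23.8 FPKM, the transcription factor *Irf5* 9.44 and the costimulatory receptor *Cd86* 6.38 FPKM. Their sum was 2.68 to 5.13 FPKM in sham and 55.6 to 133 in AAN, and *Il12a* was at 0 in sham.

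Markers of other myeloid cells were counted next, with 35.8% of all genes called higher and 3.43% lower. Some of those counted had a sham mean under the filter and passed it through the AAN mice, so the counts are a description. Of 5 monocyte genes, 5 were called higher, with a sum of 4.22 to 6.78 FPKM in sham and 33.0 to 86.7 in AAN, led by *Plac8* (49.6 FPKM), *Ccr2* (5.01), *F10* (2.57) and *Ly6c2* (1.07). Of 6 dendritic cell genes, which matter here because *Mgl2*, *Clec10a* and *Ccl17* are also known from these cells, 6 were called higher, with sums of 0.969 to 3.07 and 21.5 to 43.7 FPKM, led by *Cd209a* (9.12), *Ccr7* (8.58), *Clec9a* (6.86) and *Xcr1* (2.80). Of 9 neutrophil markers 6 had values, 4 were tested and 2 were called higher (*S100a9* and *S100a8*). *Ltf* and *Retnlg* were not called (limma, adjusted p = 0.186 and 0.531). *Ngp* and *Ly6g* were under the filter, *Ngp* with means of 0.0497 FPKM in sham and 0.0305 in AAN. The sums were 0.113 to 2.21 FPKM in sham and 1.04 to 9.06 in AAN (3.48 or more without B614), with *Ly6g* at 0 in sham. Of 4 eosinophil genes with values, 2 were tested (*Prg2* and *Siglecf*). Both passed the filter only through the AAN mice, so their rise is a description. The sums were 0 to 0.00954 FPKM in sham and 0.520 to 2.70 in AAN (0.887 or more without B614), with *Epx*, *Prg2* and *Ccr3* at 0 in sham. Of 9 genes of resident macrophages 4 were tested and 3 called higher (*Cx3cr1* at 19.9, *Stab1* at 8.93 and *Timd4* at 0.188 FPKM), *Cbr2* not being called. *Timd4* passed the filter through the AAN mice, so its rise is a description. *Lyve1*, *Cd209b*, *Cd209f* and *Vsig4* were under the filter. The sums were 2.78 to 4.81 FPKM in sham and 19.4 to 40.9 in AAN, with *Timd4* and *Cd209f* at 0 in sham. The part of each cell type in the values of the 10 genes was not tested.

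Of 24 relatives of the 10 genes by family 19 had values, 11 were tested, 5 were called higher and 0 lower, beside 35.8% and 3.43% of all genes, with sums of 19.1 to 45.6 FPKM in sham and 37.7 to 53.0 in AAN and *Chil5*, *Chil6*, *Chit1* and *Lyzl4* at 0 in sham. Besides *Arg2*, the mean of *Mrc2* went from 2.26 to 11.2 FPKM and that of *Ly75* from 0.328 to 1.77. As a description, that of *Asgr2* went from 0.00645 to 2.28 and that of *Izumo1r* from 0.0148 to 1.97. *Asgr2* and *Izumo1r* had a sham mean under the filter and passed it through the AAN mice. *Retnlg*, the relative of *Retnla* in neutrophils, had 0.0748 and 0.170 FPKM (adjusted p = 0.531, limma), and no stretch of 100 bases is shared between the 2 transcripts. *Folr1*, the folate receptor alpha of the tubule, had 23.0 and 12.1 FPKM (-0.95; limma, adjusted p = 0.0521) and shares at most 20 bases in a row with *Folr2*.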

How the data were processed

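Paired-end libraries of kidney cortex RNA were made for each mouse. The authors filtered the reads, aligned them with Hisat2 2.0.4 (genome GRCm38.p4) and obtained the deposited FPKM of known gene models from Stringtie 1.3.0, 1 file per mouse and no pooling. FPKM carries no further scaling between mice, and the annotation release is not given in the sources used here. Names and positions came from GENCODE M21 (GRCm38), and upstream sequences from RefSeq (GRCm38.p6).

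Depth was recovered from FPKM steps of genes with 1 transcript (values under 0.3 FPKM, tolerance 0.05 of a fragment), where 94.5% to 96.8% came out whole. Fragments of Retnla, Lyz1 and Lyz2 follow from it. For the other genes, whose values Stringtie splits between transcripts, only an upper limit is given. Intervals cover counting error only.

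Groups were tested with limma 3.58.1 (R 4.3.3, eBayes with trend and robust, two-sided) on log2(FPKM + 0.1) over the 17129 genes whose mean over all mice reached 0.1 FPKM, which understates the change of low genes. The Benjamini-Hochberg adjustment ran over all genes tested, and genes were called at an adjusted p of 0.05 and 2-fold. Differences per mouse used an exact two-sided permutation test over 210 assignments, adjusted over 13 tests, of which those with Arg1, Chil3 or Cd163 are given as descriptions, and correlations all 720 pairings, adjusted over 55. The fit was tested on simulated data. Python 3.11.15, pandas 2.3.3 and scipy 1.17.1 were used.

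The genes and lists were chosen with earlier results of these data known. Of the macrophage core list, 1 gene is not reported here by itself. The text names all 10 genes, for each list up to 4 of the genes highest in AAN and any called lower, and 5 genes of like pattern for Retnla, Arg1 and Lyz1 each. Genes named beyond this rule, as not called, at 0 in sham or close relatives, were picked after their values were seen. The alternatives were pseudocounts of 1 and 0.01, other filters and scalings, limma without trend or robust, no fold limit, each mouse left out, B tags alone and a core list without C1q genes.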

Additional observations from a re-analysis of the deposited data

Results flagged for a closer look

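Of 52 groups of values examined for a sample far from the others, 4 had one, where chance gives about 2.6. Chil3 and Lyz1 were above 0 in a single sham mouse, H249, at 0.0585 and 0.048 FPKM, and at 0 in the other 3. For Lyz1 this is 1 fragment, and for Chil3 at most 1.57. In AAN, Lyz1 of B642 was 223.7 FPKM against 65.0 to 123 in the other 5 mice. Cd163 minus Mrc1 (log2) was -7.56 in the AAN mouse B639 against -6.43 to -5.92 in the others, where the Cd163 value corresponds to less than 1 fragment.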

How the results depend on the processing

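No paired analysis was possible because no mouse of one group is tied to a mouse of the other in the labels. Of 472 results recomputed under an alternative, 417 were rated the same. For tested results this means the same direction and the same side of the limit. The values of Retnla and Lyz1 and the counts of genes called were rated by how far they moved. With a pseudocount of 1 the count of genes called higher was 2909 in place of 6126, and it was 4025 with a mean of at least 1 FPKM, 3193 by the median of ratios, 2487 by quantiles and 9482 without a fold limit. Genes called lower were 1810, 2085 and 1027 in the last 3 settings, in place of 588. Leaving out 1 mouse gave 5457 to 6653 and 528 to 701. The difference from the core changed direction for Arg1 at a pseudocount of 1 (-1.09), for Chil3 at 0.01 (0.39) and for Clec10a at 0.01 (0.53), by the median of ratios (0.075), without C1q genes (0.33) and without the sham mouse B636 (0.0702). It no longer passed for Mrc1 at 1 (0.40) and passed for Clec10a at 1 (-1.54). As descriptions it was -1.13 for Cd163 and 4.38 for Arg1 at 0.01, and -1.80 for Chil3 in B tags alone. Arg1 minus Arg2 was -0.47 at 1 and 4.44 at 0.01, and Arg1 minus Nos2 was 4.23 at 0.01. Leaving out 1 mouse, Arg1 differed from the core by 0.89 to 1.74, from Arg2 by 0.96 to 1.83 and from Nos2 by 1.34 to 2.55, each highest without B614, and Clec10a differed from the core by -0.19 to 0.07. Correlations past adjustment fell from 4 to 0 at a pseudocount of 1 and by the median of ratios. The sham levels of Arg1, Chil3, Cd163, Retnla and Lyz1 lie under the pseudocount and that of Clec10a near it, so their log2 values depend on it. Depth limits Chil3 and Cd163, which rest on few fragments.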
